A study of Mus musculus with 6 samples.

Results

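Messenger RNA of 9 genes that make, move and degrade the monoamine transmitters was measured in hypothalamic tissue of DIO mice given GSK-J4 or vehicle. The 9 genes were taken by symbol from the gene names on the array, which number 37074, and every probe carrying 1 of these symbols was used, which gave 15 probes. They are the synthetic enzymes Th, Ddc, Dbh, Tph2 and Hdc, the transporters Slc18a2 and Slc6a3, and the degrading enzymes Maoa and Maob. Of the 15 probes, 10 were tested, and 0 were higher and 0 lower in the GSK-J4 group at an adjusted p of at most 0.05. On the deposited values, the difference nearest to this threshold was that of Th, at 0.39 on the log2 scale, and the one largest in size was that of Hdc, at -0.51.

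Dopamine, noradrenaline, serotonin and histamine are made by small groups of neurons from dietary amino acids. A vesicular carrier loads all of them into synaptic vesicles, and separate carriers of the plasma membrane take most of them up again. Monoamine oxidases on the outer membrane of mitochondria degrade dopamine, noradrenaline and serotonin. The hypothalamus holds the histamine neurons of the brain and several groups of dopamine neurons, some of which restrain prolactin release, whereas its noradrenaline and serotonin come mainly in axons whose cell bodies lie in the hindbrain and midbrain.

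The data are 6 one-colour Agilent arrays, 3 in each group, and the design text places a different mouse on each. The treated mice were male C57BL/6J DIO mice given GSK-J4 at 30 mg kg−1, and the controls were male C57BL/6J DIO mice given vehicle, which the design text lists as a dose of 0. DIO stands for diet induced obesity, and both groups were fed a high-fat diet with 60 kcal% fat. GSK-J4 inhibits the Kdm6 demethylases, enzymes that take H3k27me3, a repressive mark, off histone H3. It reaches the whole animal and is not a deletion of Kdm6a alone. The design text gives day 4 after exposure for the tissue, while the courses described with the study are longer. An age is not given in the labels. All 3 vehicle arrays lie on slide 1 and all 3 GSK-J4 arrays on slide 2, each slide with a scan of its own, so the effect of treatment and that of slide cannot be told apart here. The arrays of the GSK-J4 group were the dimmer ones, with 57.7% to 58.7% of all probes well above background against 62.8% to 63.6% on the vehicle arrays.

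The tissue label was set against markers. Of 15 genes that mark hypothalamic neurons, 10 had a tested probe, among them those of the peptides Pomc, Npy and Hcrt. The probes of Nkx2-1 and Sim1, transcription factors of the hypothalamus, were well above background on 0 of the 6 arrays, and those of the peptides Avp, Pmch and Trh on 3. The mean log2 signal of the 10 tested markers was 8.03 to 8.35 on the GSK-J4 arrays and 7.65 to 7.85 on the vehicle arrays, with Pomc (0.85) and Npy (0.42) called higher by limma. Over all genes 8.6% were called higher. The Pomc and Npy probes have GC contents of 55% and 50%. Tested probes within 2 percentage points of these had median log2 fold changes of 0.23 and 0.20. Markers of the choroid plexus, which makes cerebrospinal fluid, set vehicle replicate 1 apart. The mean of their 6 log2 signals was 13.1 on that array, against 7.92 and 8.10 on the other vehicle arrays and 7.95 to 9.21 on the GSK-J4 arrays. Differences without that array are given below beside those with it.

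The probes are 60 bases long, and 5 of the 9 genes have more than 1. The sequences below are those of the probes on which detection turned. Coordinates are on mm9 as the array files give them, all are printed 5′ to 3′ in lower case on the strand of the transcript, and the exon or UTR in which a probe lies was not determined, since no annotation of this build was used here. For Th, Dbh and Hdc the probe nearer the 5′ end was dim, and for Maob and Ddc it was detected on every array, so these 5 are shown whole. The Th probe skips an intron of 152 bases. For the probes nearer the 3′ end that carry the differences of Th, Hdc and Maob, only the 30 bases at the 5′ end are shown.
Th A_66_P102005, chr7:150080370-150080581, minus strand: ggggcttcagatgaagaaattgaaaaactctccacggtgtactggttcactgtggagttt
Dbh A_51_P444543, chr2:27037081-27037140, plus strand: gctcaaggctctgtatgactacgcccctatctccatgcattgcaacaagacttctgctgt
Hdc A_66_P125908, chr2:126420357-126420416, minus strand: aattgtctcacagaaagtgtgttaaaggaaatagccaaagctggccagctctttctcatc
Maob A_66_P124140, chrX:16313176-16313235, minus strand: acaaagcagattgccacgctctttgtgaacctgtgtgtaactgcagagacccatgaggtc
Ddc A_52_P63905, chr11:11776262-11776321, minus strand: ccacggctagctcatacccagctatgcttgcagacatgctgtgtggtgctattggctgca
Th A_55_P2275249, chr7:150078703-150078762, minus strand: ccaggatggtcctgcattcctcctgccctt
Hdc A_51_P254656, chr2:126419516-126419575, minus strand: ttgatcataacctcacagggtcttcgtgat
Maob A_51_P302566, chrX:16286427-16286486, minus strand: cttgcatcttctagttagtctgcttccatt

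Detection differed between probes of the same transcript record. Of the 15 probes, 9 passed the scanner's test of being well above background on all 6 arrays, 3 on some of them and 3 on 0. For Th the probe at base 1675 of the record was detected on 6 arrays and the probe at base 1076 on 0. For Dbh the probe at base 2222 was detected on 5 arrays and that at base 1673 on 0, and for Hdc the probe at base 2219 was detected on 6 and that at base 1378 on 2. Both Maob probes, at bases 571 and 2332, were detected on 6. Over the array, the probe farther downstream was on more arrays in 1954 of all 9768 pairs of probes of 1 record, and most pairs had equal numbers. Among the 848 pairs of probes of 1 record with 6 arrays against 0, the probe farther downstream was the detected one in 87.1%, and among the 2387 pairs with unequal numbers of arrays it was detected on more arrays in 81.9%. The remaining Hdc probe, A_55_P2631999, was designed for another transcript record and was detected on 0 arrays.

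**Figure D1:**
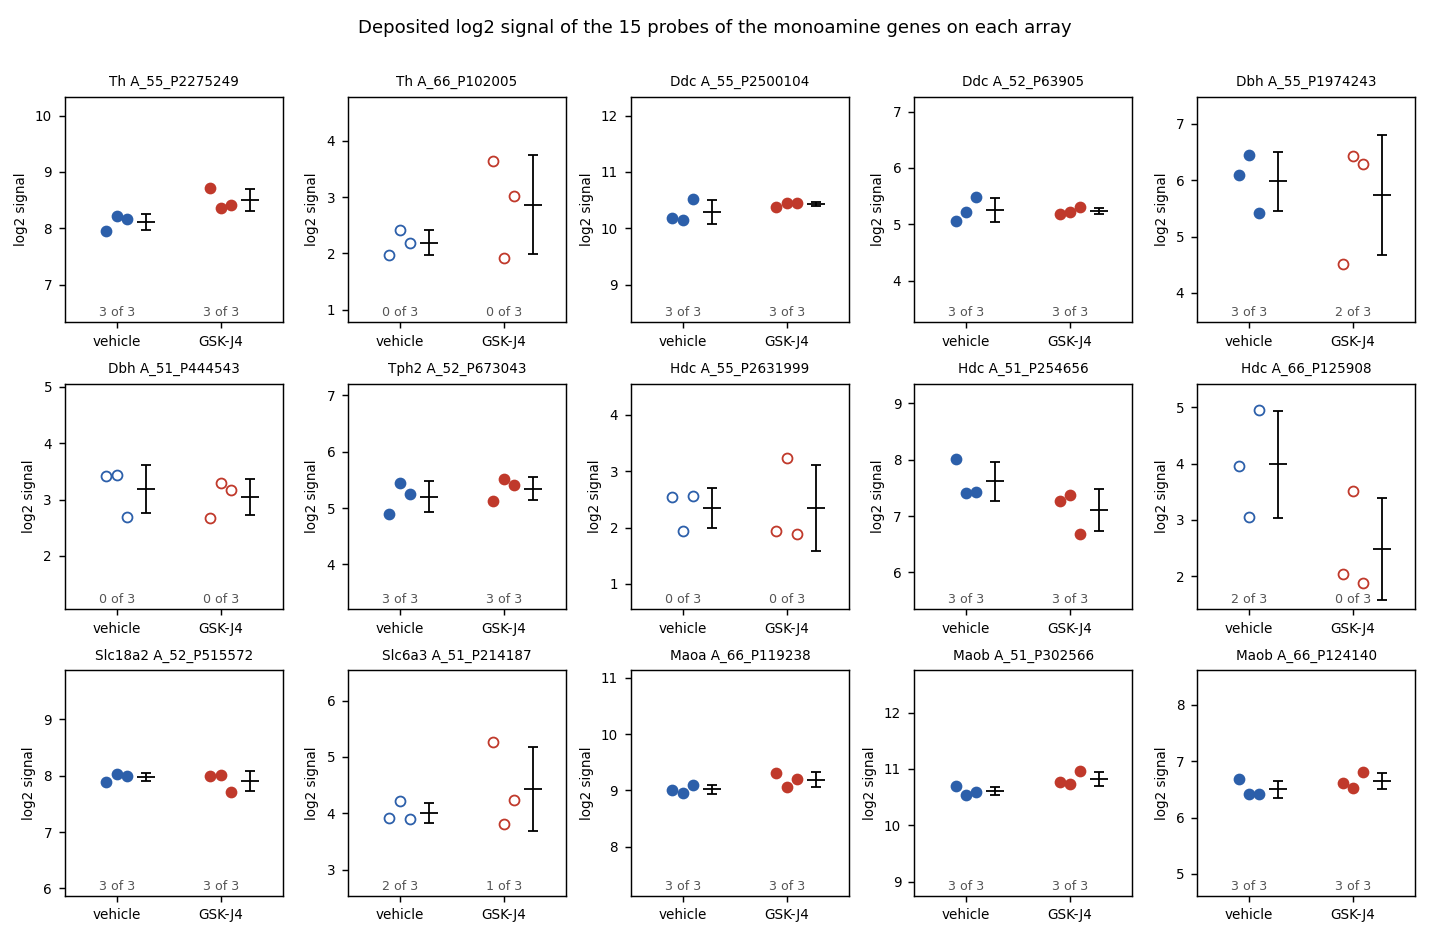
Deposited log2 signal (y axes, each spanning the same number of log2 units around the probe's own range) of each of the 15 probes on the 3 vehicle arrays (blue) and the 3 GSK-J4 arrays (red), with mean and SD in black. Filled points mark groups with the probe well above background on each of the 3 arrays, and the number of such arrays stands under them. The groups separate for Th A_55_P2275249, Hdc A_51_P254656 and Maob A_51_P302566, and 5 probes have no group in which they were detected on all 3 arrays.

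Groups were compared on the deposited log2 table with limma, over the 34443 probes that at least 1 group had well above background on each of its 3 arrays, with Benjamini-Hochberg adjustment over all of them. Of these probes 8.39% were called higher and 8.42% lower. The 10 probes tested belong to 8 of the 9 genes, and limma called 0 of them. At an unadjusted p of at most 0.05 limma counted 1 of 10, where 36.5% of all tested probes pass, and the methods' t-test counted 0. The share of all tested probes passing the latter test at this p is not given, so its 0 cannot be set against one. With a change of 1.5-fold or more required beside that p, limma counted 0 of 10, against 12.6% of all tested probes. The median log2 fold change was 0.15 for the 10 probes and 0.02 for all tested probes. The 3 arrays of one group lay apart from the 3 of the other in 2 of the 10 probes with GSK-J4 higher and in 1 with GSK-J4 lower, shares that are 24.5% and 21.2% among all tested probes. For 7 of the 10 the 95% interval of the difference lay within 1.5-fold in either direction, against 49.3% of all tested probes. The 3 whose interval passed that bound were Th, Dbh and Hdc, so a change of that size in them is not excluded by these arrays. In bulk tissue, fewer cells of a type and less RNA per cell cannot be told apart in any of these values.

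**Figure D2:**
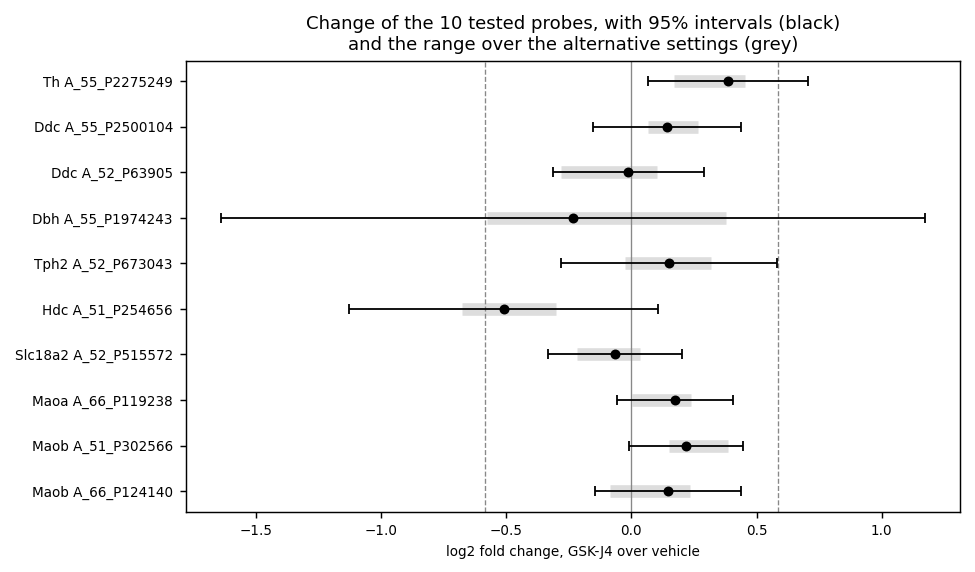
Log2 fold change of GSK-J4 over vehicle (x axis) for the 10 tested probes, with 95% intervals from limma in black, the lowest to highest value over the alternative settings in grey, and dashed lines at 1.5-fold in either direction. The interval of Th A_55_P2275249 alone does not cross 0, and that of Dbh A_55_P1974243 is the widest, from -1.64 to 1.17.

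Th encodes tyrosine hydroxylase, the rate-limiting enzyme of catecholamine synthesis. Its log2 signal on probe A_55_P2275249 was 8.72, 8.37 and 8.41 on the GSK-J4 arrays and 7.95, 8.23 and 8.16 on the vehicle arrays. Every GSK-J4 array lay above every vehicle array, the closest values being 8.37 and 8.23. The group means were 8.50 ± 0.19 and 8.11 ± 0.14 (SD, n = 3 each), a log2 fold change of 0.39 (SE 0.13), or 1.31-fold with a 95% interval of 1.05 to 1.63. It did not pass the threshold in limma (adjusted p = 0.0905, unadjusted p = 0.0252), and the exact permutation test gave p = 0.1, the smallest that 3 arrays against 3 can give. Leaving out 1 array at a time gave differences of 0.28 to 0.45, with 0.31 without vehicle replicate 1. The log2 fold change had a median of 0.19 over probes with a GC content within 2 percentage points of this probe's 48.3%, and removing the trend with GC content lowered the difference of Th to 0.17. The mean of the 10 hypothalamic markers above was likewise higher on the GSK-J4 arrays without overlap, as were 6 of the 10 singly while 4 overlapped. Among all tested probes, 24.5% lay apart with GSK-J4 higher. The part of these markers in the difference of Th was not tested.

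Ddc encodes aromatic L-amino acid decarboxylase, which turns L-DOPA into dopamine and 5-hydroxytryptophan into serotonin. Probe A_55_P2500104 gave log2 signals of 10.38, 10.44 and 10.45 on the GSK-J4 arrays and 10.18, 10.14 and 10.53 on the vehicle arrays. Vehicle replicate 3 was the highest of all, so the groups overlapped, and the difference was 0.14 (SE 0.12, adjusted p = 0.424 in limma). The other probe, A_52_P63905, differed by -0.01 (SE 0.12) with an interval of -0.32 to 0.29. Without vehicle replicate 1 the differences of these 2 probes were 0.09 and -0.11. The deviations of the 2 probes from their group means ran together over the 6 arrays (Pearson's r = 0.88, given as a description, since both were read on the same arrays).

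Dbh encodes dopamine beta-hydroxylase, which makes noradrenaline from dopamine. Its probe A_55_P1974243 read 4.52, 6.43 and 6.29 on the GSK-J4 arrays and 6.09, 6.45 and 5.41 on the vehicle arrays. The lowest value, on GSK-J4 replicate 1, was not well above background. The difference was -0.23 (SE 0.57), with an interval from -1.64 to 1.17, and the spread within groups was larger than that of 97.3% of all tested probes. Without GSK-J4 replicate 1 the difference was 0.38, so its direction rests on that array, and without vehicle replicate 1 it was -0.18. The interval runs from 0.321-fold to 2.26-fold, too wide to bound a change of Dbh closely.

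Tph2 encodes the neuronal tryptophan hydroxylase, the rate-limiting enzyme of serotonin synthesis. Its log2 signal was 5.12, 5.52 and 5.41 on the GSK-J4 arrays and 4.90, 5.44 and 5.25 on the vehicle arrays. The groups overlapped over most of their range, with a difference of 0.15 (SE 0.18) and an interval of -0.28 to 0.58 (adjusted p = 0.568 in limma). Vehicle replicate 1 was the lowest array, and without it the difference was 0.0020. The probe was detected on all 6 arrays. Of 6 markers of raphe serotonin neurons, the transcription factor Fev, the serotonin transporter Slc6a4 and En1 were detected on 0 arrays and Gata3 on 1, while Htr1a and Lmx1b were detected on 6.

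Hdc encodes histidine decarboxylase, which makes histamine and in the brain marks the neurons of the tuberomammillary nucleus. Its probe A_51_P254656 read 7.27, 7.37 and 6.69 on the GSK-J4 arrays and 8.02, 7.41 and 7.42 on the vehicle arrays. Every GSK-J4 array lay below every vehicle array, yet 7.37 and 7.41 are almost equal, and vehicle replicate 1 is the highest and GSK-J4 replicate 3 the lowest array. The group means were 7.11 ± 0.37 and 7.62 ± 0.35 (SD, n = 3 each), a log2 fold change of -0.51 (SE 0.25), or 0.702-fold with a 95% interval of 0.458 to 1.08. Limma gave an adjusted p of 0.197 and an unadjusted p of 0.0883, and the exact permutation test p = 0.1. The difference was -0.31 without vehicle replicate 1 and -0.30 without GSK-J4 replicate 3, so its size depends on these arrays.

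The second Hdc probe of the same record, A_66_P125908, was well above background on vehicle replicates 1 and 3 only, at 3.95 and 4.95, and gave no testable difference. Mast cells also make histamine. Of their 8 markers, Fcer1a, Ms4a2 and Tpsab1 were detected on 0 arrays, Cpa3, a granule protease, on 1 and Cma1 and Mcpt4 on 2, while the 2 tested markers, Kit and Tpsb2, differed by -0.13 and -0.33 without passing limma's threshold. The mean of these 2 was 8.81 to 9.06 on the GSK-J4 arrays and 8.91 to 9.35 on the vehicle arrays.

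The genes whose signal followed that of Hdc most closely were sought among 20201 genes detected on all 6 arrays, by Pearson's correlation of deviations from the group means. The closest 3 were Dnah6 (r = 0.999), Dnah2 (r = 0.996) and 9530027D23Rik (r = 0.996), and 97 genes lay above 0.95. Dnah6 and Dnah2 encode heavy chains of the dynein motors of motile cilia. Dnah6 read 7.36, 7.64 and 6.25 on the GSK-J4 arrays and 8.91, 7.65 and 7.71 on the vehicle arrays. As with Hdc, vehicle replicate 1 was the highest array and GSK-J4 replicate 3 the lowest. The difference was -1.01 for Dnah6 (adjusted p = 0.197) and -0.71 for Dnah2 (adjusted p = 0.130), and limma called 9530027D23Rik lower (-0.95, adjusted p = 0.0409). Over 6 arrays such likeness can rest on a few deviating arrays. Its cause was not tested, and no p is given for it. The choroid plexus markers, also highest on vehicle replicate 1, had their second highest mean, 9.21, on GSK-J4 replicate 1, where Hdc read 7.27, and their part in the difference of Hdc was not tested.

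**Figure D3:**
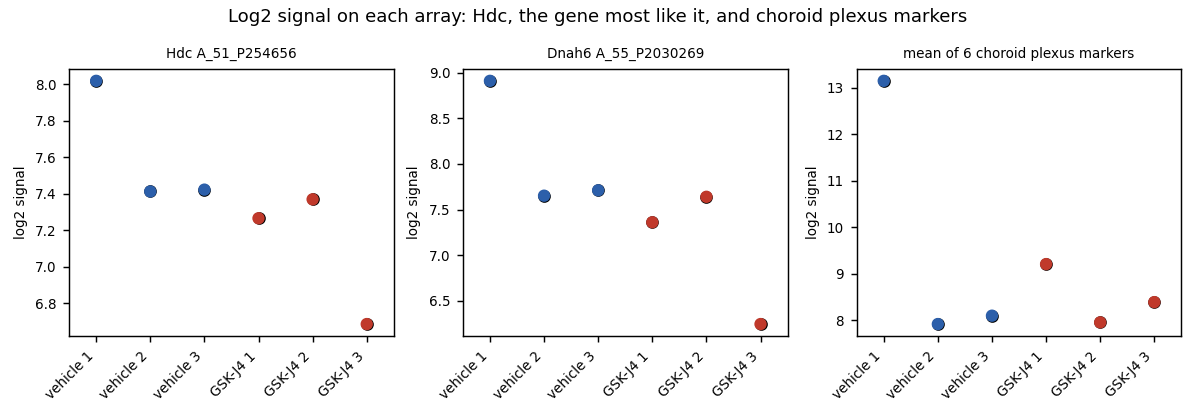
Log2 signal (y axes, each with its own range) on each of the 6 arrays (x axes) for Hdc A_51_P254656, for Dnah6, the gene whose deviations were most like those of Hdc, and for the mean of 6 choroid plexus markers. Vehicle replicate 1 is highest in all 3 panels, at 8.02, 8.91 and 13.1, whereas GSK-J4 replicate 3 is lowest for Hdc and Dnah6 but not for the choroid plexus markers.

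Slc18a2 encodes the vesicular monoamine transporter, which all aminergic neurons use to fill their vesicles. Its log2 signal was 8.00, 8.01 and 7.71 on the GSK-J4 arrays and 7.89, 8.03 and 8.00 on the vehicle arrays. The groups overlapped, and the difference was -0.06 (SE 0.11) with an interval of -0.33 to 0.20. This is 0.957-fold, with bounds of 0.795 and 1.15 (adjusted p = 0.698 in limma). Without vehicle replicate 1 the log2 difference was -0.11.

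Slc6a3 encodes the dopamine transporter, which clears dopamine from outside the cell and marks the dopamine neurons of the midbrain and of the arcuate nucleus. Its only probe, A_51_P214187, was well above background on 3 arrays, GSK-J4 replicate 1 at 5.26 and vehicle replicates 1 and 2 at 3.92 and 4.21, so it was not tested. Of 7 markers of midbrain dopamine neurons, En1, Foxa1 and Drd2 were detected on 0 arrays, Pitx3 on 3, and Aldh1a1, Calb1 and Ntsr1 on 6. Of 4 markers of locus coeruleus neurons, the noradrenaline transporter Slc6a2 and the transcription factor Phox2a were detected on 0 arrays, and the peptide genes Calca and Gal on 6.

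Maoa encodes monoamine oxidase A, the form that prefers serotonin and noradrenaline. Its log2 signal was 9.31, 9.06 and 9.21 on the GSK-J4 arrays and 9.00, 8.95 and 9.10 on the vehicle arrays. Only GSK-J4 replicate 2 fell within the range of the vehicle arrays, and the difference was 0.17 (SE 0.09) with an interval of -0.06 to 0.40 (adjusted p = 0.237 in limma). With normexp background correction the difference was 0.0039, and without vehicle replicate 1 it was 0.17.

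Maob encodes monoamine oxidase B, which in the brain is abundant in astrocytes and in histamine and serotonin neurons. Probe A_51_P302566 read 10.77, 10.74 and 10.96 on the GSK-J4 arrays and 10.69, 10.54 and 10.59 on the vehicle arrays. Every GSK-J4 array lay above every vehicle array, the closest values being 10.74 and 10.69, and the difference was 0.22 (SE 0.09) with an interval of -0.01 to 0.44 (adjusted p = 0.148 in limma). The second probe, A_66_P124140, read 6.62, 6.52 and 6.81 against 6.68, 6.42 and 6.41, with overlapping groups and a difference of 0.15 (SE 0.12). Without vehicle replicate 1 the differences of the 2 probes were 0.26 and 0.23. The direction of A_66_P124140 turned, to -0.03 with 75th percentile scaling and to -0.09 with the GC trend removed. The difference of A_51_P302566 rose to 0.39 with that trend removed (adjusted p = 0.0588 in limma), where Th had an adjusted p of 0.382. With normexp background correction A_51_P302566 differed by 0.24 (adjusted p = 0.0617 in limma). Of 7 astrocyte markers 0 were called, and their mean was 11.75 to 11.97 on the GSK-J4 arrays and 11.77 to 11.83 on the vehicle arrays.

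Whether probes of a gene differed in response was tested within each array, where 9.23% of all such probes were called. For Maob the downstream probe minus the upstream one changed by 0.07 (SE 0.09, adjusted p = 0.654) and for Ddc by 0.16 (SE 0.10, adjusted p = 0.344), both from limma. The 2 Maob probes have GC contents of 35% and 50% and the 2 Ddc probes of 38.3% and 55%. With the trend in GC content removed within each array, the difference between probes became 0.47 for Maob and 0.50 for Ddc, both past the threshold (adjusted p = 0.0423 in limma), so the call for both genes depends on that correction. The 9.23% above is the share without this correction, and the share with it is not given. With 75th percentile scaling in place of this correction, the difference was 0.30 for Maob (adjusted p = 0.0942 in limma). For Ddc it was then 0.36 (adjusted p = 0.0520 in limma), so both grew there without passing the threshold. The median log2 fold change of tested probes near the GC content of the downstream Maob probe was -0.13, and near that of the upstream one 0.20.

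The other genes of these pathways were counted from lists of 54 genes on the array, of which 35 had a tested probe, with 1 probe for each gene. Limma called 1 higher and 0 lower, where 8.6% and 7.56% of all 22117 genes were called, and 12 of the 35 had an unadjusted p of at most 0.05, a share that is 35.6% over all genes. Signs were positive for 26 and negative for 9, with a median of 0.14 against 0.04 over all genes. The called gene was Adra1b, the alpha-1B adrenergic receptor, which reads noradrenaline. It read 9.38, 8.69 and 9.09 on the GSK-J4 arrays and 8.13, 8.25 and 8.29 on the vehicle arrays. The groups lay clearly apart, with a difference of 0.83 (SE 0.18, adjusted p = 0.0352). The call was lost without any 1 of 5 arrays (all but GSK-J4 replicate 2), where the difference lay between 0.67 and 0.87 with an adjusted p of 0.0603 to 0.106, and with the replicate number as a block (adjusted p = 0.0926).

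The adrenergic receptors were the list with most genes near the threshold. Of 8 tested, 7 had an unadjusted p of at most 0.05, 6 of these with GSK-J4 higher and Adra2b, at -0.63, lower, and their median was 0.38. Over all genes 35.6% passed this p, and 20.1% did so with GSK-J4 higher. Dopamine and histamine receptors are named here after their values were seen. Drd1 read 0.72 above vehicle (adjusted p = 0.0627) and Drd5 -0.23, while Drd2, Drd3 and Drd4 were detected on 0 arrays. Hrh1 read 0.69 above vehicle (adjusted p = 0.0933), Hrh3, the receptor by which histamine neurons sense their own transmitter, 0.23, and Hrh4 0.14, while Hrh2 was detected on 0 arrays. Leaving out GSK-J4 replicate 2, limma called Drd1 and Hrh1 higher as well (0.95 and 0.94) and Adra2b lower (-0.86). Leaving out any other array, it called 0 pathway genes. The share of all genes called without GSK-J4 replicate 2 is not given, so these calls cannot be set against it.

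Of the 8 tested genes for the tetrahydrobiopterin cofactor and other synthesis steps 0 were called, and 6 were above 0. Of 6 other degrading enzymes tested 0 were called and 5 were above 0, with a median of 0.04. Among them Hnmt, histamine N-methyltransferase, differed by -0.07, and it was also named after its value was seen. Of 7 other transporters 2 were tested and 0 called, with a median of -0.40. Of 13 transcription factors of aminergic neurons 6 were tested and 0 called, and 5 were detected on 0 arrays, Fev, En1, Foxa2, Isl1 and Phox2a.

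**Figure D4:**
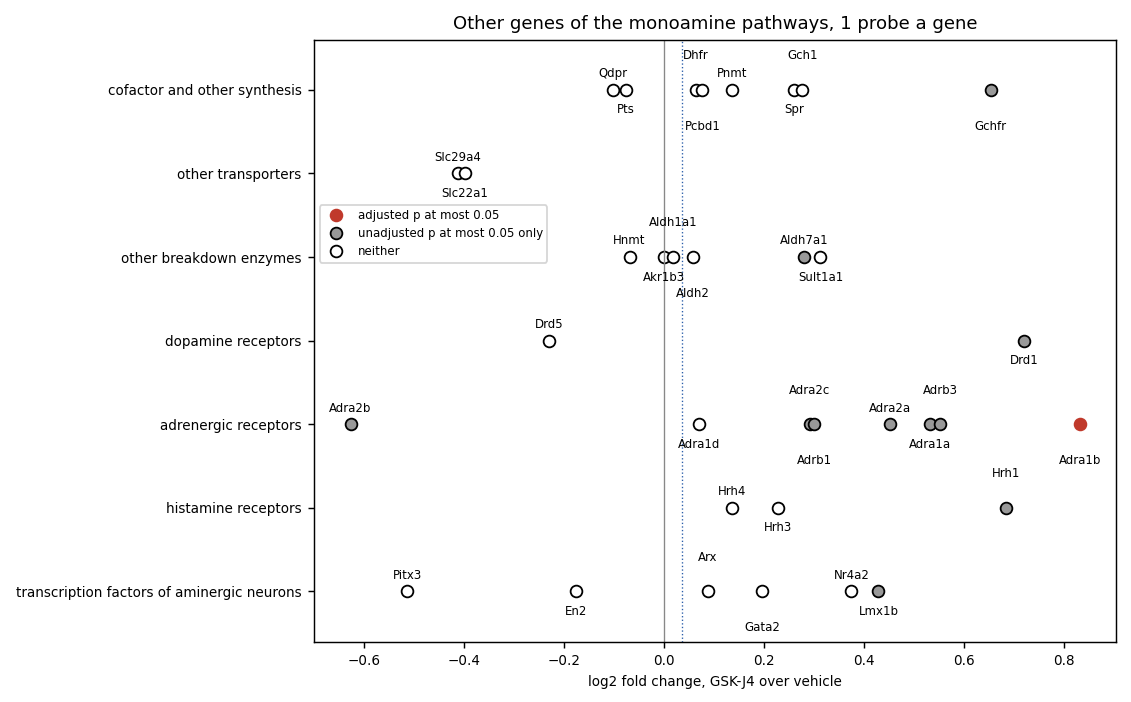
Log2 fold change of GSK-J4 over vehicle (x axis) for each tested gene of the 7 pathway lists (y axis), 1 probe a gene. Red marks an adjusted p of at most 0.05, grey an unadjusted p of at most 0.05 only, and the dotted line the median of all genes, 0.04. Adra1b is the only red point, and 7 of the 8 adrenergic receptors are grey or red.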

How the data were processed

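RNA of 6 hypothalamus samples was measured on Agilent SurePrint G3 mouse arrays. The authors scanned them with Feature Extraction 10.7.1.1 and deposited, for every spot, its intensity after background correction with flags, and a table of log2 values, quantile normalized in GeneSpring. The log2 table (56745 rows, 140 of them controls) gave all main values; the flags gave detection. Quantile normalization makes the arrays' distributions alike, so the dimmer GSK-J4 arrays can shift low and high probes differently. A probe was kept where the flags of 1 group put it well above background on each of its 3 arrays. For lists, the probe with the highest mean was taken for each gene. Groups were compared with limma 3.58.1 (lmFit, eBayes) in R 4.3.3, two-sided, with no covariate. Tests were tested on simulated data. Within groups, arrays correlated at 0.978 to 0.995, and 0 pairs were identical. The number of arrays limits the precision.

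The 9 genes and the lists of pathway and marker genes were chosen with earlier results of these data known. Of list genes, those with an adjusted p of at most 0.05 (at most 6 a list) and undetected markers were named. Other list genes were named beside these, among them Hcrt, Kit, Tpsb2 and Adra2b. Of 7 neuron markers, not described above, limma called Map2 lower (-0.33, adjusted p = 0.0430), where 7.56% of all genes were called lower. All 9 symbols matched the GRCm38.p6 gene table, which was used for names only. Alternatives covered the signal source, scaling, background correction, filters, GC content, variance model, weights, pairing, test, threshold, probe averaging and leaving out each array. Some genes of the lists are not reported here and were left out of the counts. The other experiments of the study were not analysed here.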

Additional observations from a re-analysis of the deposited data

How the results depend on the processing

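Over 177 recomputed differences of the 10 probes, 169 kept their sign and 0 were called. Settings that alter only the filter, variance model, test, threshold or replicate block leave a difference unchanged, so its sign could not turn there. The same holds for probe averaging in genes with 1 tested probe. The numbers of called probes of the 9 genes stayed at 0 higher and 0 lower under every alternative run, including the methods' t-test. That t-test called only 93 of all 34443 tested probes, so 0 of 10 says little there. Signs turned with 75th percentile scaling for Maob A_66_P124140 (-0.0317) and Tph2 (-0.0241), with normexp background correction for Tph2 (-0.0225), and with the GC trend removed for Maob A_66_P124140 (-0.0857). Leaving out 1 array gave -0.58 to 0.38 for Dbh, -0.11 to 0.10 for Ddc A_52_P63905 and -0.12 to 0.0347 for Slc18a2; the cause was not tested. Pathway genes called higher numbered 4 with 75th percentile scaling, 2 with normexp (1 lower) and 0 with the replicate block. When leaving out 1 array they numbered 0 to 3 (0 to 1 lower). The shares of all genes called under these settings are not given, so the counts cannot be set against them. Among the 4 with 75th percentile scaling, Qdpr turned its sign, from -0.10 on the deposited values to 0.28. With the GC trend removed, the 2 probes of Maob differed from each other, as did the 2 of Ddc, which is 1 comparison for each gene. The share of all such probes called with that trend removed is not given. Deviations of same-numbered arrays correlated at 0.0073, 0.026 and 0.081, so the numbers were not taken to pair the mice, and the replicate block changed no other call. Scaling to the 75th percentile moved the median of all tested probes by -0.02, but single probes moved further and in both directions. Th went from 0.39 to 0.27, Hdc from -0.51 to -0.68 and Ddc A_52_P63905 from -0.01 to -0.19. Ddc A_55_P2500104 rose from 0.14 to 0.17 and Maob A_51_P302566 from 0.22 to 0.27. Low signal limits Dbh, Slc6a3 and the upstream probes of Th and Hdc. Tph2 and Ddc A_52_P63905 were detected on 6 arrays but were also dim. The GSK-J4 and vehicle means were 5.35 and 5.20 for Tph2, and 5.23 and 5.25 for this Ddc probe.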

Other observations

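The dim hypothalamic transcription factors led to a further look at regional genes, which were chosen after the values of the tissue markers were seen and are given as detection only. Of 5 genes of cortex and hippocampus (Neurod6, Neurod2, Tbr1, Emx1 and Slc17a7), 5 were flagged well above background on every array. Of 5 genes of the striatum 4 were, Drd2 being the exception with 0 arrays, and of 5 genes of the thalamus 4 were, with Gbx2 on 0. Of 8 further hypothalamic genes 2 were detected on all 6 arrays (Nr5a1 and Lhx9) and 3 on 0 (Otp, Hmx2 and Hmx3). Rax, a gene of tanycytes, was detected on 5 arrays, and Nkx2-4 and Fezf1 on 1 each. These values bear on where Th, Hdc and the other genes were read, and what tissue the RNA came from was not tested.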
